A study of Mus musculus with 9 samples.

Results

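The transcripts of 39 genes of mitosis and the spindle were examined in primary mouse microglia, the resident macrophages of the brain. The genes were taken as a list of names, from the cyclins that start mitosis to the proteins that cut the dividing cell apart, and a probe belonged to a gene when the platform annotation gave it that gene's symbol. The list was chosen with earlier results of these data known, so it was not tested as a set. Of the 39 genes, 37 had at least 1 probe, with 73 probes among the 45281 on the array. Ccnb1 and Mki67 had no probe under those symbols and were not analysed here. Each probe has a detection p-value per array, which ranks its signal against background. Probes under 0.05 in this measure on 3 or more of the 9 arrays were analysed, which left 34 probes of 24 genes, beside 16895 probes of 9391 genes in all.

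Cells came from the cortex of C57BL/6J pups 1 to 5 days old, and every group carried the intact cannabinoid receptor 2 gene (CB2+/+). One group of 3 arrays held cells exposed for 16 h to lipopolysaccharide (LPS, a bacterial cell wall component) and interferon-gamma (IFNγ, 20 ng/ml), together a classical inflammatory stimulus. LPS is listed at 100 with an incomplete unit. Another 3 arrays held cells kept in interleukin-4 (IL-4), which drives the alternative activation of macrophages, at 100 U/ml for 48 h. The last 3 arrays held unstimulated cells, whose culture time is not given. The labels do not say whether replicates were separate cultures, so p-values measure only the spread between these samples, and 3 arrays a group limit the precision.

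Mitosis is driven by CDK1 with its cyclins, which set off chromosome condensation and spindle assembly. The spindle checkpoint then holds back the anaphase-promoting complex until every kinetochore is attached to microtubules, after which sister chromatids part and the cell divides. Transcripts of these genes peak late in the cell cycle, because most of their promoters are repressed in resting cells through the cell cycle genes homology region, bound by the DREAM and MuvB complexes, and are activated with NF-Y at CCAAT boxes. Microglia in culture can divide, and mitosis transcripts are commonly read as a measure of how many cells are cycling.

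Promoter windows from RefSeq (GRCm38.p6; 250 bases before to 50 after the gene start, printed in the direction of the gene) were found for 34 of the 39 genes. The others were Ccna2, Aurkb, Incenp, Kif20a and Tpx2. The windows of the 6 genes with the lowest adjusted p-values among those matched are printed, since they hold, or in 1 case lack, the letters that mitosis promoters share. Capitals mark TTTGAA or TTCGAA (forms of the homology region) and CCAAT, searched on both strands, so that TTCAAA and ATTGG are matches on the other strand. In Cdca8 a TTTGAA and an ATTGG share letters. The windows lie at chr5:30666636-30666935 (Cenpa, plus strand), chr2:118597961-118598260 (Bub1b, plus strand), chr9:22389157-22389456 (Anln, minus strand), chr4:124936868-124937167 (Cdca8, minus strand), chr7:122159185-122159484 (Plk1, plus strand) and chr11:117848987-117849286 (Birc5, plus strand).
Cenpa: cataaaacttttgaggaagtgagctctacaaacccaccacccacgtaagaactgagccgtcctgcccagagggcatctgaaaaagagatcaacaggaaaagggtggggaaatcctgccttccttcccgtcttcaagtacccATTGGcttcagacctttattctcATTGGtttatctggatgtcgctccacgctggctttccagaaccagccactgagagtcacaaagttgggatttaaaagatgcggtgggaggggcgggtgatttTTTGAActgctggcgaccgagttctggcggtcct
Bub1b: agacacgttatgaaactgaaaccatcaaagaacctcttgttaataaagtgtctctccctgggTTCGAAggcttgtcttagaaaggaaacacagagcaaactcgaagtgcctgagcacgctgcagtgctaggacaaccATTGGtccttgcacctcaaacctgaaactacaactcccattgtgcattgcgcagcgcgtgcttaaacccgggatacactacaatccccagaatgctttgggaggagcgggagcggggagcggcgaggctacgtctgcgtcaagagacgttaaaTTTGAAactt
Anln: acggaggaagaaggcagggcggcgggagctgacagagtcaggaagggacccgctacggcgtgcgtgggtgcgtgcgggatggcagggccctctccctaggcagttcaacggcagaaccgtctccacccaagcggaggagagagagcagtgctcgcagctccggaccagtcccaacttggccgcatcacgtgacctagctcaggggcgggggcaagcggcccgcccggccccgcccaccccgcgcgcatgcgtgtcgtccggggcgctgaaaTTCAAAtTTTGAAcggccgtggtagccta
Cdca8: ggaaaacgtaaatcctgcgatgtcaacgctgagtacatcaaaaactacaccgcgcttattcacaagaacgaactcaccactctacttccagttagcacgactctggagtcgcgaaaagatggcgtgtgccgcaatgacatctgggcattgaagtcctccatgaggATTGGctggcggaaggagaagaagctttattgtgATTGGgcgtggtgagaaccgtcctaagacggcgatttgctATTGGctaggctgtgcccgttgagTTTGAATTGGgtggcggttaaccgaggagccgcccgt
Plk1: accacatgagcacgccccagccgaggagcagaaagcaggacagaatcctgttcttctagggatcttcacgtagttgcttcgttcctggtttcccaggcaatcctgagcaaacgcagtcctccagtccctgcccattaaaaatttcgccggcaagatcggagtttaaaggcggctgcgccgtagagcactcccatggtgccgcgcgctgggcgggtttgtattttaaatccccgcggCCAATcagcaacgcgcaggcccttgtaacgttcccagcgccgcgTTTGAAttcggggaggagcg
Birc5: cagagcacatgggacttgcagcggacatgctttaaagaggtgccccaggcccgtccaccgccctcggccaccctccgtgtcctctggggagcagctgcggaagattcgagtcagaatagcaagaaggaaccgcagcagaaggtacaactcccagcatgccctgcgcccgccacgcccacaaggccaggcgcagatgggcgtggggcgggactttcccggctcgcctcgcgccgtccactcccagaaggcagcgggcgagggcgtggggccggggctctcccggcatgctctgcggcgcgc

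TTTGAA or TTCGAA stood in the window of 26 of the 34 genes (76.5%), against 21.7% of the 27025 genes with a window. CCAAT stood in 26 of 34 (76.5%), against 41.1% of all, and both kinds of motif in 23 of 34 (67.6%), against 8.61% of all. In Cenpa the TTTGAA began 17 bases after the gene start, and in Plk1 it began 31 bases after it. No match was found in Birc5, Mad2l1, Nuf2, Nusap1 or Pttg1, which says only that these letters are not in these windows. These are descriptions of sequence, and no test was made on them.

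**Figure D1:**
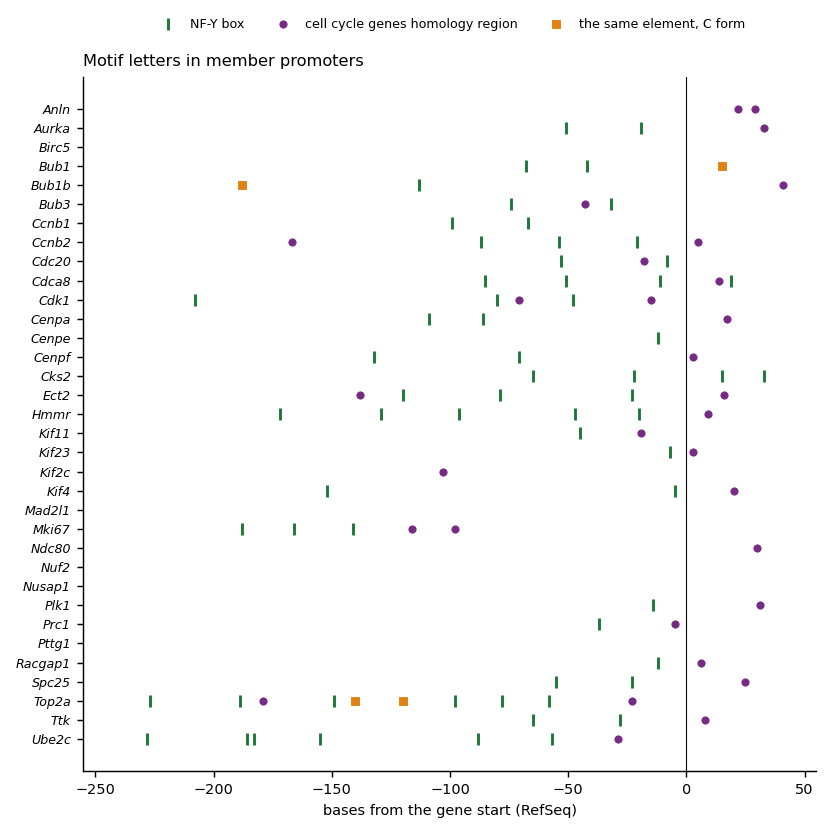
Position of each motif match in the RefSeq promoter windows, in bases from the gene start (vertical line at 0), with 1 line per gene, green bars for CCAAT (NF-Y box), purple dots for TTTGAA and orange squares for TTCGAA. Matches of the homology region lie near the gene start in most of the 26 genes that hold one, and 5 genes hold no match.

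On 8 arrays the mean intensity was 310.9 to 378.6 and between 14475 and 16435 probes were detected. LPS + IFNγ replicate 2 stood apart, at a mean of 111.9 with 6208 probes detected, so the counts of calls and most single values are also given without it. The slide of each array was inferred from the number that opens its name, which gave a pair of slides. On slide 1 were replicates 1 and 2 of both stimulated groups, and on slide 2 were replicate 3 of each and the whole unstimulated group. Of the microglia markers 12 were measured, and their summed level (linear normalized intensity) was 17700 to 31710 on LPS + IFNγ arrays, 51800 to 62510 on IL-4 arrays and 55030 to 76160 on unstimulated arrays, and 6 of the 12 fell with LPS + IFNγ against unstimulated cells. Of the markers of other cells, 4 of 10 for astrocytes, 6 of 10 for the oligodendrocyte lineage, 1 of 8 for neurons and 1 of 10 for endothelial, mural and fibroblast cells passed the filter, while Gfap, Aqp4, Olig2, Sox10, Tubb3, Snap25, Cldn5 and Col1a1 did not. The summed level of the measured oligodendrocyte markers was 939 to 1932 on LPS + IFNγ arrays, 845 to 1160 on IL-4 arrays and 1083 to 1334 on unstimulated arrays. Of these 6 markers 1 fell and 2 rose with LPS + IFNγ against unstimulated cells. The part of such cells in the mitosis values was not tested.

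The first comparison set LPS + IFNγ against unstimulated cells. Of 24 mitosis genes, 8 fell with LPS + IFNγ and 0 rose (limma's moderated test, Benjamini-Hochberg adjusted p under 0.05), beside 12.2% of all genes lower and 6.12% higher. The genes that fell were Cenpa, Bub1b, Plk1, Birc5, Anln, Mad2l1, Cdc20 and Top2a, from 5 of the 7 roles into which the genes were sorted. Plk1, Anln and Top2a were detected on no LPS + IFNγ array and passed the filter only through the other groups. The count of lower genes is therefore partly fixed by the filter. The log2 difference had a median of -1.12 over the 24 genes, against -0.22 over all genes, and it was negative in 21 of the 24, as in 60.8% of all genes. An unadjusted p under 0.05 was found for 16 of the 24 and for 32.7% of all genes. Without LPS + IFNγ replicate 2 the count was 14 lower and 2 higher, beside 20.1% and 14.2% of all genes, with a median of -0.98 against -0.04 over all genes. Fewer dividing cells and less RNA per cell cannot be told apart in such bulk samples.

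The weak array touches nearly every one of these genes. Its lowest detected value was 7.34 (normalized log2 intensity), against 4.74 to 4.92 on the other arrays. Of the 24 genes, 21 had an unstimulated mean below 7.34, as did 54.3% of all genes, and 2 of the 24 were detected on it. On the other LPS + IFNγ arrays, replicates 1 and 3, 15 and 13 of the 24 were detected, against 23, 22 and 23 on the IL-4 arrays and 22, 24 and 24 on the unstimulated arrays. Genes detected on no LPS + IFNγ array could pass the filter only through the other groups, so these counts are partly fixed by it. Over all probes, 15096 and 14475 were detected on LPS + IFNγ replicates 1 and 3, against 15806 to 16435 on the IL-4 and unstimulated arrays. The slides differ too: with slide as a block the count was 2 lower (Cenpa and Bub1b) and 0 higher, beside 4.54% and 2.57% of all genes, with a median of -0.99. Within slide 2, where 1 LPS + IFNγ array met 3 unstimulated arrays and its spread was taken from theirs, 4 fell and 2 rose, beside 13.2% and 8.88%, with a median of -0.97. With undetected values raised to the smallest value detected on the same array, 1 gene fell and 2 rose, beside 7.03% and 8.02% of all genes, with a median of -0.27. In that setting without LPS + IFNγ replicate 2, 10 fell and 2 rose, beside 19.1% and 14.7% of all genes. When any other array was left out the count of lower genes was between 5 and 8, and it was 5 without unstimulated replicate 1, unstimulated replicate 3, IL-4 replicate 2 or IL-4 replicate 3.

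**Figure D2:**
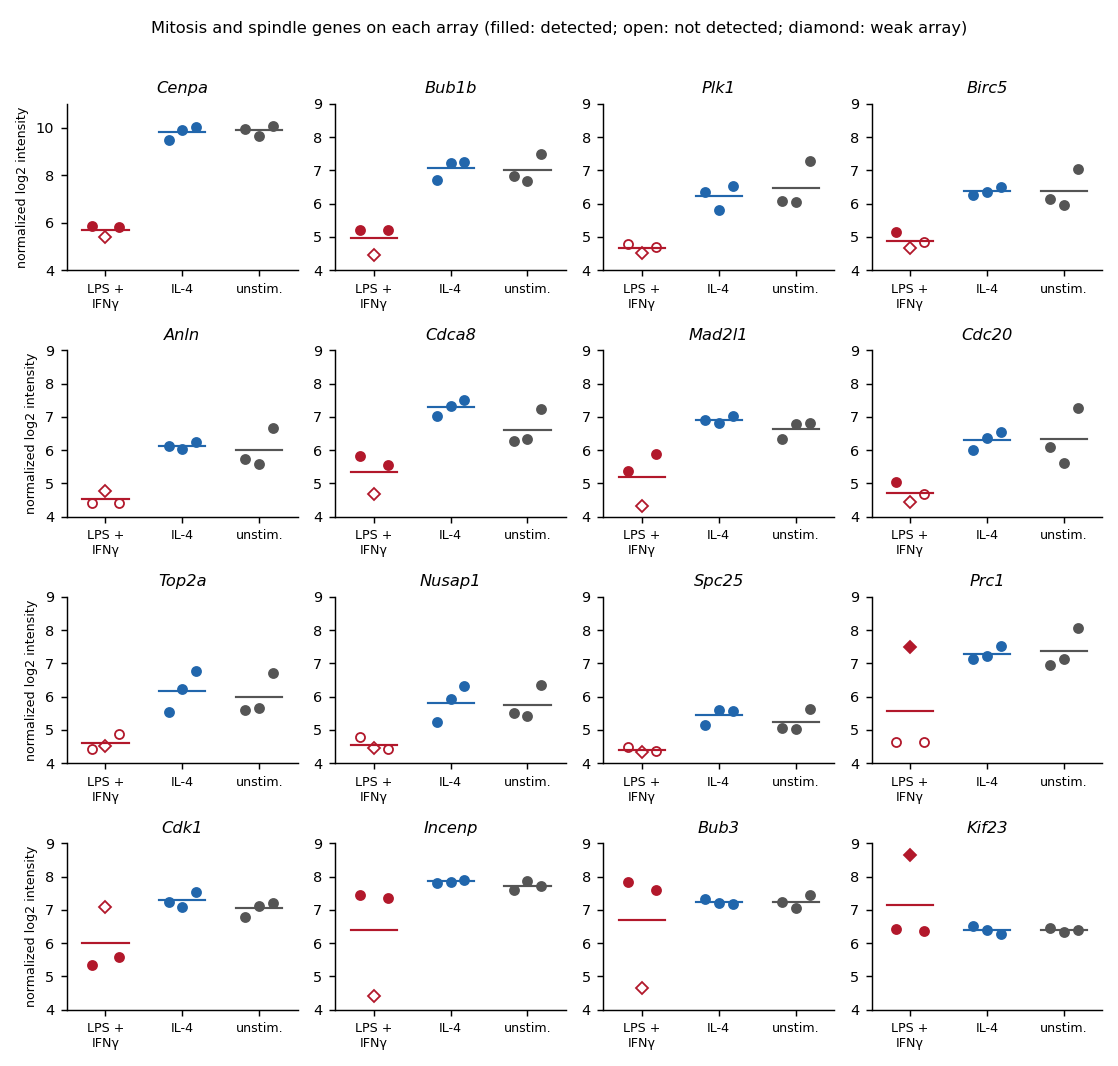
Normalized log2 intensity of 16 genes on each array, by group from left to right (LPS + IFNγ, IL-4, unstimulated), with a bar at the group mean; filled marks were detected, open marks were not, and the diamond is LPS + IFNγ replicate 2. For Cenpa the LPS + IFNγ arrays lie at 5.42 to 5.85 and all the others at 9.49 or above, while for Prc1, Cdk1, Incenp, Bub3 and Kif23 the diamond lies far from the other LPS + IFNγ arrays.

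At the centromere and kinetochore, where chromosomes meet microtubules, 3 of 6 genes were measured and Cenpa fell. Cenpa encodes the histone H3 variant that marks centromeric chromatin. It read 5.85, 5.42 and 5.80 (normalized log2 intensity, replicates 1 to 3) with LPS + IFNγ, 9.49, 9.89 and 10.03 with IL-4, and 9.95, 9.63 and 10.09 in unstimulated cells. Every LPS + IFNγ array lay below every other array, and 2 of the 3 were still detected. These values rest on 1 probe (ILMN_1236574), since the other Cenpa probe (ILMN_2471161) read 4.26 to 4.64 and was detected on no array. The log2 difference from unstimulated cells was -4.20 ± 0.24 (SE, n = 3 arrays per group, adjusted p = 5.56e-05), and -4.06 ± 0.22 without replicate 2 (adjusted p = 7.71e-06). It was -4.03 with slide as a block and -4.08 within slide 2, with its single LPS + IFNγ array (adjusted p = 0.000877).

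Spc25, a subunit of the NDC80 complex that grips microtubules, read 4.49, 4.34 and 4.37 with LPS + IFNγ, 5.16, 5.61 and 5.58 with IL-4, and 5.05, 5.03 and 5.64 in unstimulated cells. It was detected on no LPS + IFNγ array and on all 6 others, and against unstimulated cells its adjusted p was 0.0517 with all arrays and 0.0297 without replicate 2. For genes detected on no LPS + IFNγ array a bound (at least so many fold) stands in place of a fold change, in which an undetected reading counts as the smallest reading that was detected on the same array. An adjusted p beside a bound, here and below, comes from the fit to the readings as normalized, undetected ones included. It tests the fitted difference and not the bound. For Spc25 a bound came only without replicate 2, at least 1.28-fold lower than in unstimulated cells. Ndc80, which gives that complex its name, was also detected on no LPS + IFNγ array, with an adjusted p of 0.105 with all arrays and of 0.0908 without replicate 2.

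In the spindle checkpoint and the anaphase-promoting complex, 5 of 8 genes were measured and Bub1b, Mad2l1 and Cdc20 fell. Bub1b encodes BUBR1, a part of the complex that inhibits anaphase. It read 5.20, 4.47 and 5.21 with LPS + IFNγ, 6.71, 7.23 and 7.24 with IL-4, and 6.84, 6.69 and 7.49 in unstimulated cells. The LPS + IFNγ readings were the lowest 3 of the 9, but Bub1b was not detected on replicate 2, so the rank of that array is not known. The difference from unstimulated cells was -2.05 ± 0.32 (SE, adjusted p = 0.00368), -1.81 ± 0.27 without replicate 2 (adjusted p = 0.00113) and -1.83 with slide as a block (adjusted p = 0.0394).

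Mad2l1 encodes MAD2, which holds CDC20 back until chromosomes are attached, and CDC20 in turn switches on the anaphase-promoting complex. Mad2l1 read 5.37, 4.32 and 5.88 with LPS + IFNγ, 6.90, 6.82 and 7.03 with IL-4, and 6.34, 6.79 and 6.82 in unstimulated cells. The difference from unstimulated cells was -1.46 ± 0.38 (adjusted p = 0.0315), and -1.03 ± 0.22 without replicate 2 (adjusted p = 0.00754). Replicate 2 read lowest of its group, but Mad2l1 was not detected on it. Cdc20 read 5.05, 4.43 and 4.69 with LPS + IFNγ, 6.01, 6.36 and 6.55 with IL-4, and 6.10, 5.60 and 7.27 in unstimulated cells. Unstimulated replicate 3 read highest of all arrays for Cdc20. No LPS + IFNγ reading reached the lowest of the others, but the rank of replicate 2 is not known, since Cdc20 was not detected on it. Cdc20 differed by -1.60 ± 0.41 (adjusted p = 0.0317), and by -1.45 ± 0.42 without replicate 2 (adjusted p = 0.0275). Of the LPS + IFNγ arrays Cdc20 was detected on replicate 1 alone, so both differences include undetected readings.

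Bub3, which carries checkpoint proteins to kinetochores, did not follow them. It read 7.84, 4.64 and 7.59 with LPS + IFNγ, 7.33, 7.22 and 7.17 with IL-4, and 7.23, 7.07 and 7.44 in unstimulated cells. Only the weak array read low, where Bub3 was not detected, and LPS + IFNγ replicates 1 and 3 were the highest of all. The difference from unstimulated cells was -0.56 ± 0.73 (adjusted p = 0.635) with all arrays and 0.47 ± 0.18 without replicate 2 (adjusted p = 0.079). Pttg1 encodes securin, which restrains the enzyme that cuts cohesin, and was singled out after its values were seen. It read 5.95, 4.38 and 6.81 with LPS + IFNγ, 5.83, 4.54 and 4.66 with IL-4, and 5.08, 5.40 and 4.98 in unstimulated cells. With all arrays the difference was 0.56 ± 0.59 (adjusted p = 0.554), and without replicate 2 it rose by 1.23 ± 0.40 (adjusted p = 0.0432).

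All 6 genes of the mitotic kinases and the chromosomal passenger complex were measured, and Plk1 and Birc5 fell. Plk1 is the kinase that acts in centrosomes, kinetochores and cytokinesis. It read 4.79, 4.52 and 4.69 with LPS + IFNγ, 6.36, 5.80 and 6.52 with IL-4, and 6.07, 6.04 and 7.29 in unstimulated cells. It was detected on no LPS + IFNγ array and on all others. Plk1 was at least 1.70-fold lower with LPS + IFNγ than in unstimulated cells (adjusted p = 0.0117), and at least 2.99-fold lower without replicate 2 (adjusted p = 0.00777).

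Birc5 encodes survivin and Cdca8 encodes borealin, which together take the kinase Aurora B to centromeres. Birc5 read 5.16, 4.66 and 4.86 with LPS + IFNγ, 6.26, 6.34 and 6.51 with IL-4, and 6.13, 5.96 and 7.04 in unstimulated cells. It differed from unstimulated cells by -1.48 ± 0.31 (adjusted p = 0.0131), and by -1.36 ± 0.30 without replicate 2 (adjusted p = 0.00839). Of the LPS + IFNγ arrays Birc5 was detected on replicate 1 alone, so both differences include undetected readings. Cdca8 read 5.83, 4.68 and 5.56 with LPS + IFNγ, 7.04, 7.33 and 7.52 with IL-4, and 6.27, 6.34 and 7.24 in unstimulated cells. All 3 LPS + IFNγ arrays read below every unstimulated array for both genes. Neither gene was detected on replicate 2, so the rank of that array is not known. Cdca8 had an adjusted p of 0.0541 with all arrays (-1.26 ± 0.38) and of 0.043 without replicate 2 (-0.93 ± 0.30).

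Incenp, the scaffold of the same complex, read 7.45, 4.40 and 7.36 with LPS + IFNγ, 7.82, 7.85 and 7.90 with IL-4, and 7.60, 7.88 and 7.71 in unstimulated cells. LPS + IFNγ replicates 1 and 3 were just under the other groups, and its difference of -1.32 ± 0.71 became -0.32 ± 0.16 without replicate 2 (adjusted p = 0.256 and 0.168). Aurkb, the kinase of the complex, differed by -0.80 ± 0.33 (adjusted p = 0.147) with all arrays and fell by 1.13 without replicate 2 (adjusted p = 0.00584). Of the LPS + IFNγ arrays Aurkb was detected on replicate 1 alone, so both differences include undetected readings. Aurka, the kinase of spindle poles, differed by -0.70 ± 0.36 (adjusted p = 0.236) and by -0.32 ± 0.24 without replicate 2 (adjusted p = 0.351).

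Of the cyclins and CDK1, Cdk1 alone was measured among 5 genes. It read 5.34, 7.08 and 5.58 with LPS + IFNγ, 7.25, 7.09 and 7.55 with IL-4, and 6.80, 7.12 and 7.22 in unstimulated cells. The weak array read like the unstimulated ones without being detected there, and the other LPS + IFNγ arrays were the lowest of all. The difference from unstimulated cells was -1.05 ± 0.43 (adjusted p = 0.144), and Cdk1 fell by 1.58 ± 0.21 without replicate 2 (adjusted p = 0.000613).

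Among spindle motors and microtubule proteins 7 of 9 genes were measured, and with all arrays 0 fell and 0 rose (limma; 3 had an unadjusted p under 0.05). Prc1 bundles the microtubules of the central spindle. It read 4.63, 7.48 and 4.63 with LPS + IFNγ, 7.13, 7.21 and 7.53 with IL-4, and 6.94, 7.12 and 8.05 in unstimulated cells. Replicate 2 lay within the range of the other groups, whereas Prc1 was not detected on LPS + IFNγ replicates 1 and 3. It differed by -1.79 ± 0.72 (adjusted p = 0.136) with all arrays, and without replicate 2 it was at least 5.59-fold lower than in unstimulated cells (adjusted p = 0.000254).

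Nusap1, which stabilises spindle microtubules near chromosomes, read 4.78, 4.46 and 4.44 with LPS + IFNγ, 5.23, 5.92 and 6.31 with IL-4, and 5.52, 5.41 and 6.34 in unstimulated cells. It was detected on no LPS + IFNγ array, with an adjusted p of 0.0515 against unstimulated cells, and was at least 1.83-fold lower without replicate 2 (adjusted p = 0.0385). Tpx2, which activates Aurora A and nucleates spindle microtubules and was also singled out after its values were seen, went the other way. It read 5.84, 4.44 and 6.63 with LPS + IFNγ, 4.86, 4.88 and 5.15 with IL-4, and 4.51, 4.78 and 5.52 in unstimulated cells. Without replicate 2 Tpx2 rose by 1.30 ± 0.32 (adjusted p = 0.0147), and with all arrays it differed by 0.70 ± 0.52 (adjusted p = 0.398). The motors Kif2c and Kif4 differed by -0.99 and -0.37 with all arrays (adjusted p = 0.154 and 0.42), and by -0.72 and -0.31 without replicate 2 (adjusted p = 0.194 and 0.455). Of the LPS + IFNγ arrays Kif4 was detected on replicate 3 alone. Kif11 was detected on no LPS + IFNγ array and had an adjusted p of 0.43, or 0.369 without replicate 2.

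Top2a, the topoisomerase that untangles sister chromatids, and Anln, the actin-binding scaffold of the cleavage furrow, both fell. Top2a read 4.42, 4.51 and 4.89 with LPS + IFNγ, 5.53, 6.23 and 6.76 with IL-4, and 5.60, 5.67 and 6.70 in unstimulated cells. It was at least 1.22-fold lower than in unstimulated cells, and at least 2.15-fold lower without replicate 2 (adjusted p = 0.0474 and 0.0361). Anln read 4.41, 4.77 and 4.42 with LPS + IFNγ, 6.12, 6.03 and 6.26 with IL-4, and 5.73, 5.57 and 6.68 in unstimulated cells. For Anln and Top2a alike no LPS + IFNγ array was detected and all 6 others were. Anln was at least 1.22-fold lower than in unstimulated cells (adjusted p = 0.014), and at least 2.15-fold lower without replicate 2 (adjusted p = 0.0041).

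**Figure D3:**
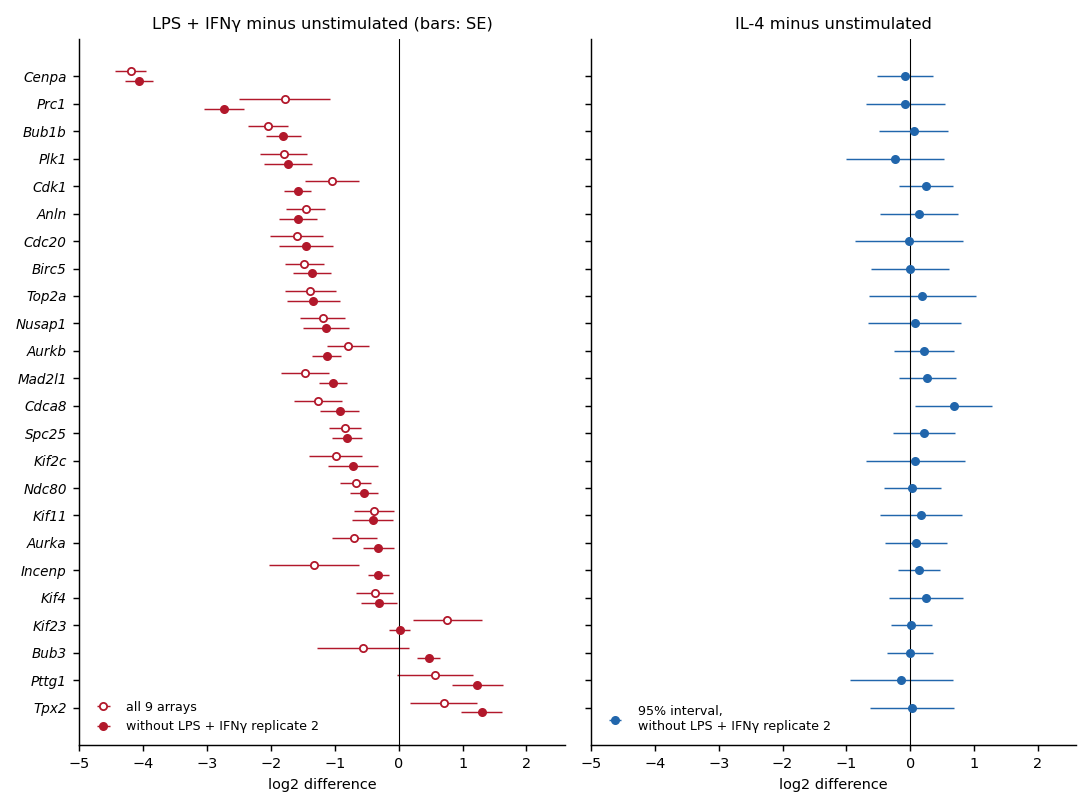
Fitted log2 difference from unstimulated cells for the 24 measured genes, undetected readings included, with LPS + IFNγ on the left (open: all 9 arrays; filled: without LPS + IFNγ replicate 2; bars: SE) and IL-4 on the right (bars: 95% interval of the fit without LPS + IFNγ replicate 2). Cenpa stands at -4.20 and -4.06 on the left, Pttg1 and Tpx2 lie to the right of 0 in both fits, Kif23 at 0.76 with all arrays and Bub3 at 0.47 without replicate 2, and on the right the differences run from -0.24 to 0.68.

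IL-4 was compared with no stimulus, against the same unstimulated arrays. No mitosis gene was called in either direction (limma, 0 lower and 0 higher of 24, and 0 at an unadjusted p under 0.05), beside 0.0% of all genes lower and 0.0639% higher. The log2 differences ran from -0.24 (Plk1) to 0.68 (Cdca8), with a median of 0.07 against 0.01 over all genes, and 17 of 24 were positive, as were 51.7% of all genes. The 95% interval lay within 1 log2 unit of 0 for 12 of 24 genes with all arrays, and for 21 of 24 in the fit without LPS + IFNγ replicate 2, whose spread enters the shared error. IL-4 and unstimulated arrays of the same replicate number deviated together, and in a fit of those 6 arrays with the replicate number as a block it lay within 1 log2 unit for 23 of 24. Unpaired, with all arrays, the interval of Cenpa was -0.64 to 0.48 and that of Bub1b -0.67 to 0.77. Paired they were -0.52 to 0.36 and -0.42 to 0.52. Cdca8 had the lowest unadjusted p-value, 0.106 with all arrays and 0.0326 without that array, where its adjusted p was 0.397. In the paired fit the interval of Cdca8 was 0.23 to 1.12, with an unadjusted p of 0.00853 and an adjusted p of 0.17, and it was the 1 gene of 24 with an unadjusted p under 0.05.

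**Figure D4:**
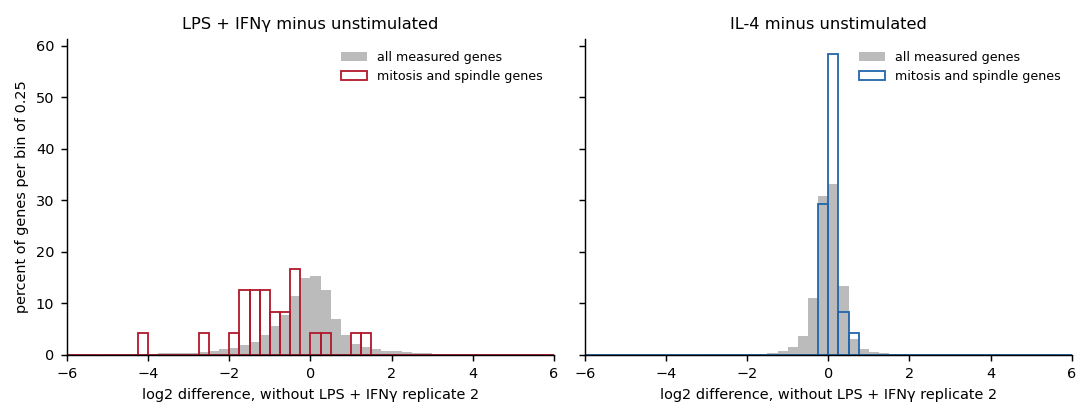
Share of genes (percent) per bin of log2 difference from unstimulated cells, without LPS + IFNγ replicate 2, for all 9391 measured genes (grey) and the 24 mitosis and spindle genes (outlined), with LPS + IFNγ on the left and IL-4 on the right. With LPS + IFNγ the outlined bars have a median of -0.98 against -0.04 for all genes, and with IL-4 both lie around 0.

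LPS + IFNγ was also compared with IL-4, which set cells of 16 h against cells of 48 h. Here 11 of 24 genes fell and 0 rose, beside 11.6% of all genes lower and 5.69% higher, with a median of -1.28 against -0.24 over all genes. The 11 were the 8 that fell against unstimulated cells, with Cdca8, Spc25 and Nusap1. Plk1, Anln, Top2a, Spc25 and Nusap1 passed the filter only through the other groups, so this count too is partly fixed by it. Cdca8 fell by 1.94 ± 0.38 (adjusted p = 0.0102), with an adjusted p of 0.00391 without LPS + IFNγ replicate 2. Spc25 had an adjusted p of 0.0231 with all arrays, and without that array it was at least 1.48-fold lower (adjusted p = 0.0117). Nusap1 was at least 1.08-fold lower (adjusted p = 0.0449), and at least 1.91-fold lower without that array (adjusted p = 0.0324). Cenpa differed by -4.12 ± 0.24 (adjusted p = 5.87e-05) with all arrays and by -3.98 without replicate 2 (adjusted p = 8.91e-06). Bub1b differed by -2.10 ± 0.32 (adjusted p = 0.00339) and by -1.86 without replicate 2 (adjusted p = 0.00105). Without LPS + IFNγ replicate 2, 14 fell and 2 rose, beside 19.6% and 13.1% of all genes, and Prc1 was then at least 5.30-fold lower than with IL-4. With slide as a block 9 fell and 0 rose (beside 9.62% and 4.95% of all genes), and within slide 2 4 fell and 1 rose (beside 8.38% and 5.86%). That last comparison set 1 array against 1, with the spread taken from the 3 unstimulated arrays. The count of lower genes was 2 without IL-4 replicate 3, 5 without IL-4 replicate 2 and 7 without LPS + IFNγ replicate 3.

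Replicates within a group differed in a shared direction. Unstimulated replicate 3 was the highest of its 3 arrays for 21 of 24 genes, against 32.1% of all genes, and IL-4 replicate 3 for 18 of 24, against 29.9% of all genes. The median normalized log2 level of the 24 genes was 6.69 on unstimulated replicate 3, against 5.95 and 5.91 on replicates 1 and 2. On IL-4 replicate 3 it was 6.41, against 6.25 and 6.13 on replicates 1 and 2, and IL-4 replicate 1 was the lowest of its group for 13 of 24. IL-4 replicate 1 also carried the astrocyte gap junction gene Gja1 at 10.68, against 4.38 and 5.13 on IL-4 replicates 2 and 3. The adhesion gene Pecam1, from the endothelial list, read 9.03 on it, against 6.88 and 8.14 on replicates 2 and 3. Pecam1 was higher on every IL-4 array than on the unstimulated arrays, at 6.29, 5.20 and 5.97. With LPS + IFNγ it read 7.43, 5.67 and 6.95, and was not detected on replicate 2. It was the 1 marker of 10 for endothelial, mural and fibroblast cells that passed the filter. The summed level of the 4 measured astrocyte markers was 162 to 219 on LPS + IFNγ arrays, 95.9 to 1772 on IL-4 arrays and 90.0 to 165 on unstimulated arrays.

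Several genes had more than 1 kept probe, and the probes did not always move alike. Each gene above is its kept probe with the highest mean. For Kif23, a motor of the central spindle, that probe (ILMN_1250752) was the only one detected on all 9 arrays. It read 6.43, 8.65 and 6.37 with LPS + IFNγ, 6.51, 6.41 and 6.29 with IL-4, and 6.45, 6.33 and 6.39 in unstimulated cells. Apart from the weak array it was flat, with a difference of 0.76 ± 0.54 with all arrays (adjusted p = 0.383) and 0.01 ± 0.16 without replicate 2 (adjusted p = 0.963).

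The other kept probes of Kif23 were lower. ILMN_1220121 read 4.68, 4.39 and 4.44 with LPS + IFNγ, 6.86, 6.49 and 6.56 with IL-4, and 6.31, 6.72 and 6.67 in unstimulated cells. It was detected on no LPS + IFNγ array and was at least 1.82-fold lower than in unstimulated cells (adjusted p = 0.000679), and at least 3.21-fold lower without replicate 2. ILMN_2923463 had an adjusted p of 0.00658 with all arrays, and without replicate 2 it was at least 1.66-fold lower (adjusted p = 0.00197). Whether Kif23 was called thus depends on the probe. Birc5 had 3 kept probes, and ILMN_2603699 differed by 0.45 (adjusted p = 0.779), with 8.80 on the weak array. Without that array ILMN_2603699 was at least 1.69-fold lower (adjusted p = 0.0259). The third probe of Birc5 (ILMN_2681241) had an adjusted p of 0.0889 with all arrays and of 0.0712 without replicate 2. Both probes of Mad2l1 fell, while the second probe of Bub1b (ILMN_2985969) had an adjusted p of 0.249 with all arrays and of 0.19 without replicate 2. Of the 3 kept probes of Cdc20, only ILMN_2867899 fell. ILMN_2612206 and ILMN_2867901 had adjusted p-values of 0.0965 and 0.184 with all arrays, and of 0.0696 and 0.105 without replicate 2. Over the 34 kept probes 11 fell with all arrays, and 18 fell and 2 rose without replicate 2. Probes of the same gene are not separate units, and the shares over all genes given above are per gene. These probe counts therefore have no background beside them.

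**Figure D5:**
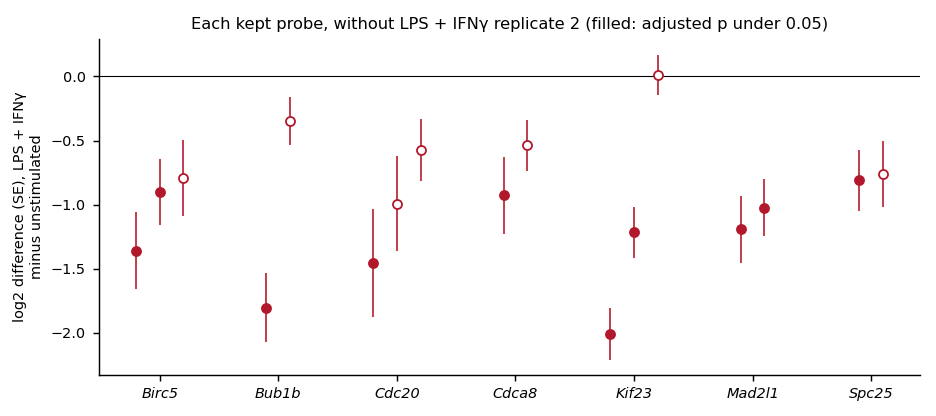
Log2 difference between LPS + IFNγ and unstimulated cells for each kept probe of the 7 genes with more than 1, without LPS + IFNγ replicate 2 (bars: SE; filled: adjusted p under 0.05). Of the 3 probes of Kif23, 1 lies at 0.01 and the fitted values of the others, undetected on the LPS + IFNγ arrays, are below -1.2, and the differences of the other 6 genes are all negative.

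The 13 genes with a probe that did not pass the filter were Ccna2, Ccnb2, Cks2, Bub1, Ttk, Ube2c, Cenpe, Cenpf, Nuf2, Kif20a, Hmmr, Racgap1 and Ect2. They include the A and B cyclins, checkpoint kinases and the regulators of the contractile ring. Of the 39 probes of all members that did not pass, 29 were detected on no array, so these data give no direction for them. Some of the 39 belong to measured genes. Cenpa, Anln, Top2a, Cdc20, Nusap1 and Prc1 each have a probe that was detected on no array.

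Other genes of cell division were read from lists chosen from knowledge of the pathway, with earlier results of these data known. Of 18 further spindle, entry and cytokinesis genes measured, 2 fell with LPS + IFNγ against unstimulated cells and 0 rose: Cdca3, a trigger of mitotic entry (-2.09, adjusted p = 0.00593), and Pbk, a mitotic kinase (at least 1.54-fold, adjusted p = 0.0128). Of 18 further centromere and kinetochore genes 1 fell and 0 rose: Cenpo (adjusted p = 0.0414), which was at least 1.24-fold lower without replicate 2 (adjusted p = 0.0201). Of 6 condensin genes 2 fell, Ncaph (-1.44, adjusted p = 0.0038) and Ncapd2 (-1.33, adjusted p = 0.0473), which compact chromosomes. Of 11 cohesin genes Pds5b fell by 0.75 (adjusted p = 0.0344) and Wapl, which unloads cohesin, rose by 0.92 (adjusted p = 0.0201). Of 12 anaphase-promoting complex genes Anapc13 fell by 0.94 (adjusted p = 0.0154) and 0 rose. Without LPS + IFNγ replicate 2 these lists had, in the same order, 6, 3, 2, 3 and 3 genes lower and 0, 4, 0, 1 and 1 higher. Against the 12.2% of all genes lower and 6.12% higher, the kinetochore list (5.56% lower), the complex (8.33%), cohesin (9.09% each way) and the spindle and entry list (11.1% lower) are near or under the background. The 2 of 6 condensin genes are above it, from few genes. Without replicate 2, beside 20.1% lower and 14.2% higher, the spindle and entry list had 33.3% lower, and the kinetochore list 16.7% lower and 22.2% higher.

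Regulators of the earlier cell cycle moved in both directions. Ccnd2, a cyclin of G1, read 10.22, 10.99 and 9.37 with LPS + IFNγ, 7.03, 4.82 and 4.57 with IL-4, and 5.93, 4.46 and 4.79 in unstimulated cells. It rose by 5.13 (adjusted p = 0.00237), while Cdk2, the kinase of the start of DNA synthesis, fell by 1.13 (adjusted p = 0.00561), the pair being the 2 called of 8 genes of that list. Without replicate 2 Ccnd2 rose by 4.73 (adjusted p = 0.00119). On unstimulated replicate 2 Ccnd2 read under the lowest detected value of that array (4.75), so both of its differences include an undetected reading. Rbl1, which encodes p107, a pocket protein of the DREAM complex, read 9.31, 10.40 and 10.17 with LPS + IFNγ, 7.22, 6.88 and 7.08 with IL-4, and 6.61, 6.97 and 6.98 in unstimulated cells. The LPS + IFNγ arrays stood above all others for both Ccnd2 and Rbl1. Rbl1 rose by 3.11 (adjusted p = 0.00046), and by 2.88 without replicate 2 (adjusted p = 8.93e-05). Among the 16 measured genes of its list Tfdp2, a partner of E2F factors (at least 1.76-fold, adjusted p = 0.000648), and E2f2 (at least 1.28-fold, adjusted p = 0.00249) fell. Gadd45b, a stress-induced growth arrest gene, rose by 3.90 (adjusted p = 0.000273), or 4.17 without replicate 2 (adjusted p = 2.31e-05), the 1 call of 12 inhibitor and arrest genes. Without replicate 2 the G1, p107 and inhibitor lists (8, 16 and 12 genes) had 2, 4 and 1 genes lower and 3, 3 and 2 higher. Over all genes that fit had 20.1% lower and 14.2% higher. The p107 list, at 12.5% lower and 6.25% higher with all arrays, was at the share over all genes, and counts of 1 or 2 genes in the other lists are likewise near it.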

How the data were processed

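Total RNA of 9 samples was extracted with TRIzol and labelled as biotinylated cRNA, per the labels' protocols. The authors deposited, per probe and array, a bead array intensity on a linear scale without scaling between arrays, and a detection p-value, per the file headers. A second deposited table holds log2 values, with column medians from 6.91 to 6.94, which were quantile-normalized intensities with an added shift per probe, opposite on the 2 slides and 0.5 times a fitted slide coefficient. The submitters' processing notes name Partek without role or version. The table was used only as an alternative.

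Background was removed by normexp (offset 16, control parameters taken from the detection p-values) in limma 3.58.1 under R 4.3.3, followed by log2 and quantile normalization. Groups were compared in 1 limma fit of 3 groups without covariates, with Benjamini-Hochberg adjustment over all kept probes and a threshold of 0.05. The script was tested on simulated data. The simulation had no weak array and did not model detection, so it says nothing on either. The labels state no model. Symbols came from the platform annotation: 34885 probes have 1 symbol, 18 several and 10378 none.

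Values on every array are given for genes past the threshold in any comparison, for the gene with the highest mean in each role group and for genes detected on all 9 arrays; in other lists up to 3 genes with the lowest adjusted p could be named. The members and lists were chosen with earlier results of these data known. Equal replicate numbers of IL-4 and unstimulated arrays deviated together across probes (r = 0.37, 0.43 and 0.30), and those of LPS + IFNγ with either group did not (r between -0.12 and 0.07). Alternatives covered background, scaling, filter, probe choice, slide, replicate number, array weights, each array left out and the deposited table, and 5 further combinations were chosen after seeing the data. Ccnb1 and Mki67 were left out for want of a named probe.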

Additional observations from a re-analysis of the deposited data

How the results depend on the processing

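Cenpa against unstimulated cells stayed past the threshold under all 25 alternatives, Bub1b under 24, Anln under 22, Birc5 and Plk1 under 21, Mad2l1 under 14, Cdc20 under 11 and Top2a under 7, with no change of direction. Only Spc25 against IL-4 turned, to 0.26, with undetected values raised to the smallest one detected on the same array. Most of these genes lie near background, and the weak array limits what could be seen of them.

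Against unstimulated cells 8 genes were lower and 0 higher with LPS + IFNγ. The lower count was 5 with no filter (of 37 genes, beside 4.96% of all genes) and in the deposited table, 1 with undetected values raised (2 higher, beside 7.03% and 8.02%), 15 with array weights (2 higher, beside 23.4% and 15.9%), 2 with slide as a block, 4 within slide 2 (2 higher), 14 with the 8 other arrays renormalized (2 higher) and 5 to 14 with each array left out in turn (0 to 2 higher). Without LPS + IFNγ replicate 2, 2 were higher with undetected values raised and 1 with slide as a block. Against IL-4, where 11 were lower and 0 higher, it was 7 without background correction, with offset 50 and with no filter, 1 with undetected values raised (2 higher, beside 6.07% and 7.11%), 17 with array weights (2 higher, beside 24.7% and 15.7%), 4 within slide 2 (1 higher), 0 within slide 1 and 2 to 14 with each array left out (0 to 2 higher). Without replicate 2, 2 were higher with undetected values raised or the 8 arrays renormalized, and 1 with slide as a block. The causes were not tested.

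The median difference from unstimulated cells (-1.12) was -0.42 without background correction, -0.70 with offset 50, -1.57 with median centring, -0.56 with no filter, -0.27 with undetected values raised and -0.34 in the deposited table. From IL-4 (-1.28) it was -0.47, -0.79, -1.78, -0.62, -0.45 and -0.47 in the same order, -1.05 with the mean of probes, -1.08 within slide 1 and -1.09 with undetected values raised and replicate 2 left out. Between IL-4 and unstimulated cells (0.07) it was 0.25 with slide as a block, 0.25 within slide 2 and -0.017 to 0.305 with each array left out. Median centring moved the median of all genes to -1.01 against unstimulated cells, and the list then stood 0.56 below it, against 0.90 below in the values reported. With the replicate block the counts were 8 lower against unstimulated cells, 10 lower against IL-4 (Nusap1 had an adjusted p of 0.0583) and 0 for IL-4, and with IL-4 and unstimulated arrays alone, paired, also 0. The block changed no other call.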

Other observations

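Of the 18 other centromere and kinetochore genes measured, 12 were negative with LPS + IFNγ against unstimulated cells, near the share of all genes given above. Their median log2 difference was -0.35. With all arrays 1 fell and 0 rose, beside 12.2% of all genes lower and 6.12% higher. Without LPS + IFNγ replicate 2, 3 fell and 4 rose, beside 20.1% and 14.2% of all genes. Zwint and Hjurp were picked from this list after their values were seen, as examples of the opposite direction. Zwint, which ties checkpoint proteins to the kinetochore, read 10.74, 11.78 and 10.83 with LPS + IFNγ, 10.11, 10.03 and 10.10 with IL-4, and 10.14, 10.31 and 10.20 in unstimulated cells. Every LPS + IFNγ array was above all others, and Zwint rose by 1.04 against IL-4 (limma, adjusted p = 0.0461), whereas against unstimulated cells its difference of 0.90 had an adjusted p of 0.0721, and of 0.0222 without LPS + IFNγ replicate 2. Hjurp, the chaperone that places the product of Cenpa at centromeres, read 8.95, 8.31 and 8.74 with LPS + IFNγ, 8.19, 8.21 and 8.23 with IL-4, and 7.95, 7.94 and 8.06 in unstimulated cells. Its difference of 0.69 from unstimulated cells had an adjusted p of 0.0694, and without LPS + IFNγ replicate 2 it rose by 0.87 (adjusted p = 0.00314), beside the fall of Cenpa.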
